A study of Mus musculus with 6 samples.

Results

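Interferon-stimulated genes are the genes that cells switch on when interferons bind their receptors, and many of their products block viruses. The set described here was given as 41 named genes, grouped by role into receptor subunits, transcription factors, nucleic acid sensors, antiviral effectors, genes of ISG15 and ubiquitin conjugation, PARP enzymes with their partner, and other induced genes. Each gene was read from the probe set with the highest mean log2(signal + 16) over the 6 arrays, a choice that does not use the groups. Of the 41 genes, 39 had a probe set of their own, out of 18193 genes that had one on the array. Ifi44 had none, and Isg15 only shared one with Gm9706. After a filter on dim probe sets 36 of the 39 were among the 13027 genes tested, and Oas3, Ifit2 and Mx2 lay below it. The gene names were drawn up with earlier results of the same contrast known, so every difference below is a description of these 6 livers, and no test of the set as a whole is given.

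Liver RNA was measured on single-colour Affymetrix arrays, 1 mouse per array. The 3 conditional knockouts (Alb-Cre::Keap1(flox/-), numbered 3, 4 and 5) had a null Keap1 allele beside the floxed one, and the 3 genetic controls (Alb-Cre:Keap1(flox/+), numbered 1, 2 and 3) had a wild-type allele beside it. All were males aged 9 weeks, had Cre under the albumin promoter, which is active in hepatocytes, and received only the vehicle of 10% DMSO, 10% Cremophor-EL and 80% PBS. The null allele was not limited to cells with Cre, and where Cre acts the controls keep 1 working allele. KEAP1 marks the transcription factor NRF2 for degradation. No mouse was described as infected or as given interferon, so the levels are those of untreated livers apart from vehicle.

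As background, type I interferons bind a receptor of the subunits IFNAR1 and IFNAR2, whose kinases JAK1 and TYK2 phosphorylate STAT proteins. STAT2 then joins IRF9 in the complex ISGF3, which binds the interferon-stimulated response element in front of the induced genes. Sensors such as RIG-I and MDA5 detect viral RNA and lead to more interferon through IRF transcription factors. Hepatocytes respond to interferon themselves, and many of these genes keep a basal level in uninfected tissue.

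The core of that element, searched here on both strands as GAAA, any 2 bases and GAAA again, was looked for in the RefSeq promoter windows of build GRCm38.p6, from 250 bases before to 50 after a gene's start. Promoters were found for 32 of the 41 genes, and 11 of these, or 34.4%, held at least 1 match, against 3.99% of the 27025 genes in the table and 3.44% of its 32851 windows. Matches that overlap each other were counted singly. The 250 bases before the start are shown for the genes with 2 or more matches there, for Stat2, which encodes a subunit of the complex that binds the element, and for the receptor gene Ifnar1, which had no match in this window. Capitals mark the matches, which begin with TTTC where the motif lies on the other strand.
Ifit1: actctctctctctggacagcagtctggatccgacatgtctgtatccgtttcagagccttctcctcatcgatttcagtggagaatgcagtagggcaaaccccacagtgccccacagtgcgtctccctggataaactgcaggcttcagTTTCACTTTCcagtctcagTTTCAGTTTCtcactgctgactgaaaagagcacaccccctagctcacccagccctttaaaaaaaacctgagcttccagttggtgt
Ifit3: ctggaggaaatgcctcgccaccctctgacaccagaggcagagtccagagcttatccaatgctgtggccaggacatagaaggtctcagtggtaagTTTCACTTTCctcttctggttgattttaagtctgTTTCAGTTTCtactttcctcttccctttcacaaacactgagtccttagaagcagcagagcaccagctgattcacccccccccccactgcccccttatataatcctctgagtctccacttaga
Isg15: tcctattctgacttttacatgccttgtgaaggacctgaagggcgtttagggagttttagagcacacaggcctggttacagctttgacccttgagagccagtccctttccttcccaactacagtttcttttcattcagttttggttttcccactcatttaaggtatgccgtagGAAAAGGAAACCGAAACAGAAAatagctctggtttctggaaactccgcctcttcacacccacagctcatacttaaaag
Bst2: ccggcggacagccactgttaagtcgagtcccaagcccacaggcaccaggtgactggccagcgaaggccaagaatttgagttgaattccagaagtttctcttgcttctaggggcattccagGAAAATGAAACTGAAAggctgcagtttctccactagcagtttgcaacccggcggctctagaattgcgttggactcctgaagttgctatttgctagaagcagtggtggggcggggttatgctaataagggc
Stat2: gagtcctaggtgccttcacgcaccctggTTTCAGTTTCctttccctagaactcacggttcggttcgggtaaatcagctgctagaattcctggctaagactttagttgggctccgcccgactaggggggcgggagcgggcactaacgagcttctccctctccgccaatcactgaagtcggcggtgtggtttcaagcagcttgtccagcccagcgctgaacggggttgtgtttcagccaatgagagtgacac
Ifnar1: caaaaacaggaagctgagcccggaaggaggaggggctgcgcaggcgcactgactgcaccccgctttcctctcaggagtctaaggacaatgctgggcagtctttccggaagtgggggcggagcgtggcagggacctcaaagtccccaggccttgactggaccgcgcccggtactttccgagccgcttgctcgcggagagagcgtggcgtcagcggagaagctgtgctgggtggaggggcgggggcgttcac
The stretches lie at chr19:34640639-34640888 and chr19:34583279-34583528 on the plus strand, chr4:156200819-156201068 and chr8:71537473-71537722 on the minus strand, and chr10:128270248-128270497 and chr16:91484965-91485214 on the plus strand, and each is written 5′ to 3′ along the gene's own strand. Ifit1 and Ifit3 each held 2 separate matches, which began at -104 and -85 and at -156 and -122 from the start. Isg15 held 3 matches that overlap in 1 run, and Bst2 held 2. Both matches of Ifitm3 lay just after its start and are not shown. Of the 18 genes with a promoter whose knockout signals all lay below the control signals, 7 held a match (38.9%). Among the 14 other members with a promoter, which include Isg15 and Ifi44, 4 did (28.6%). Of the 6 with a promoter that fell in the test described below 1 did, Ifit1 (16.7%). Rtp4, Usp18, Dhx58, Parp9 and Parp14 also fell, but no promoter was found for them. A match is a description of the letters and not evidence of binding.

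Most members had lower signals in the knockout livers. Of the 39 measured, 35 had a log2 difference below 0, and their median was -0.54, where over all 18193 genes with a probe set it was -0.03 and 54.3% lay below 0. In 25 of the 39 genes (64.1%) all 3 knockouts lay below all 3 controls and in 0 all lay above, while over all genes 10.3% and 8.43% did so. Among the 36 tested, 11 fell and 0 rose (limma, Benjamini-Hochberg over all genes), or 30.6%, where 0.944% of the genes tested fell and 1.04% rose. At an unadjusted p under 0.05, 23 members were lower and 0 higher. The share of all genes at this looser cut is not given, here or for the lists below, so counts at it stand without a comparison. Since the names were listed with this contrast known, nothing is read from these shares beyond what they count. The 11 that fell were Irf9, Irf7, Dhx58, Adar, Ifit1, Usp18, Parp9, Dtx3l, Parp14, Rtp4 and Xaf1, which spread over every role except the receptor.

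**Figure D1:**
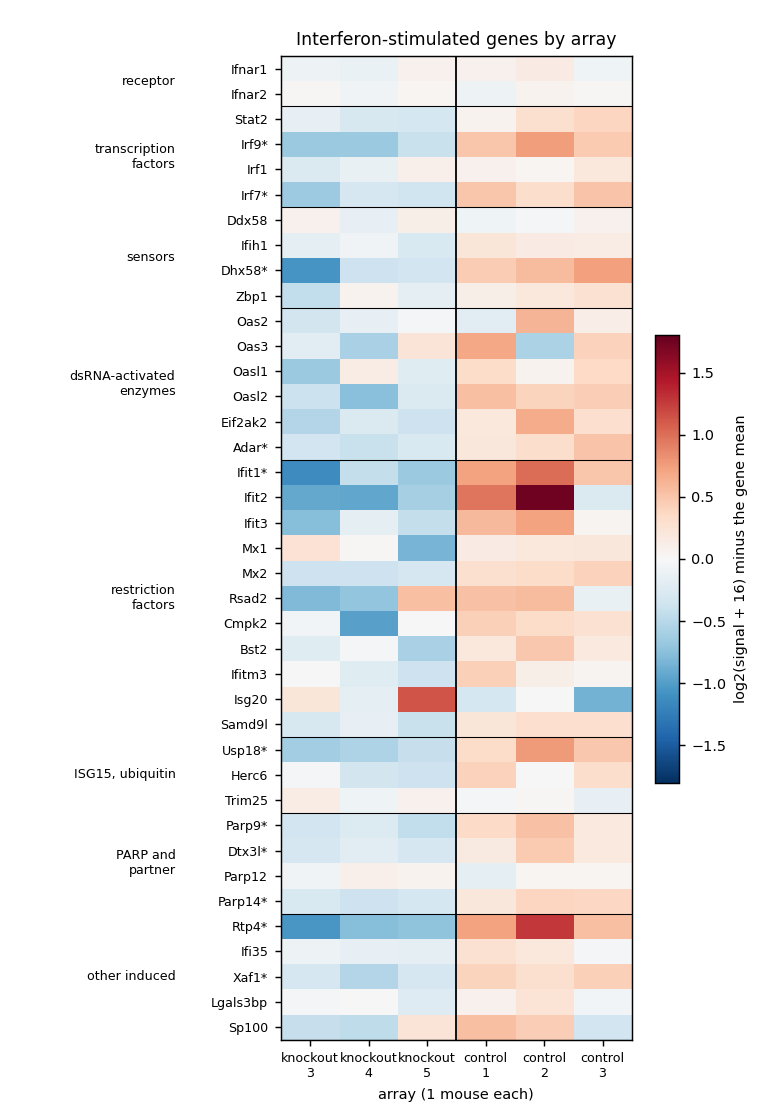
Heat map of 39 interferon-stimulated genes (rows, grouped by role) on 6 arrays (columns, 3 knockouts left of 3 controls), coloured by log2(signal + 16) minus the mean of the gene over the arrays. An asterisk marks the 11 genes that fell, and the 3 knockout columns are mostly blue where the control columns are red, with Isg20, Ddx58, Trim25 and Parp12 as the 4 genes whose difference lay above 0.

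A score of each mouse, the mean over the 39 members of log2(signal + 16) minus the gene's mean, was -0.34, -0.30 and -0.20 in knockouts 3, 4 and 5, against 0.28, 0.37 and 0.19 in controls 1, 2 and 3. The groups did not overlap, and they differed by -0.56 on the log2 scale. Within the groups knockout 3 had the lowest score and control 2 the highest. Control 2 held the highest signal of the 6 in 17 of the 39 genes, and the knockouts held the lowest in 15, 10 and 10 genes. Without any 1 array the score differed by -0.61 to -0.52, with the smallest size without control 2. By role, the transcription factors differed by -0.68, the effectors by -0.63 and the sensors by -0.47, while the receptor subunits differed by -0.04. The sensor score was -0.40, -0.13 and -0.17 in knockouts 3, 4 and 5 and 0.17, 0.22 and 0.30 in controls 1, 2 and 3, and that of the transcription factors -0.43, -0.35 and -0.24 in the knockouts and 0.29, 0.35 and 0.39 in the controls. The effector score was -0.38, -0.36 and -0.20 in the knockouts and 0.35, 0.43 and 0.17 in the controls. The spread within a group was at most 0.14 for these 3 scores (SD, n = 3). Differences between roles were not tested, and the order of effectors and transcription factors depended on the offset. The effector score includes Oas3, Ifit2 and Mx2, which lay below the filter. Of the 4 sensors Dhx58 differed most, by -1.18, and the others by -0.38 to 0.03.

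**Figure D2:**
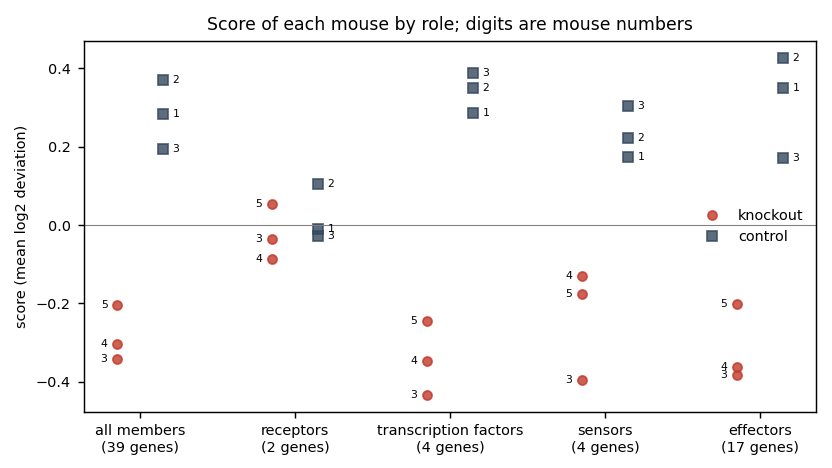
Score of each mouse (mean log2 deviation from the gene means, vertical axis) over all 39 members and by role, knockouts as circles left of controls as squares, with the mouse number beside each point. The groups lie apart for all members, transcription factors, sensors and effectors, and overlap for the 2 receptor subunits.

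The differences of the receptor subunits lay within their spread. Ifnar1 signals were 520.2, 514 and 588 in the knockouts, against 587, 616 and 527 in the controls, and the groups overlapped (log2 difference -0.09, standard error 0.13, limma adjusted p = 0.797). Ifnar2 had 3172, 2986 and 3189 in the knockouts, against 2925, 3266 and 3162 in the controls. Its groups overlapped too, and the means of 3116 ± 113 and 3118 ± 174 (SD, n = 3 each) were nearly equal, with a standard error of the log2 difference of 0.09.

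Of the 4 transcription factors, 2 fell. Irf9, which encodes the DNA-binding subunit of ISGF3, had 581, 583 and 704 in the knockouts, against 1334, 1589 and 1308 in the controls. Every knockout lay far below every control, 2.23-fold lower on average (log2 difference -1.16, standard error 0.13, limma adjusted p = 0.00388). Irf7, the factor that amplifies interferon production, had 675, 868 and 839 in the knockouts, against 1523, 1346 and 1538 in the controls, again without overlap (1.84-fold lower, log2 difference -0.88, standard error 0.13, adjusted p = 0.0139). Stat2, the partner of IRF9, had 638, 578 and 567 in the knockouts and 739, 869 and 927 in the controls. These groups did not overlap either, but the difference of -0.49 did not pass (standard error 0.13, adjusted p = 0.101), and a dimmer Stat2 probe set stood at -0.79. Irf1, which responds most to interferon gamma, had 1092, 1185 and 1394 in the knockouts and 1385, 1338 and 1487 in the controls. Its groups overlapped, with a log2 difference of -0.20 (standard error 0.12, adjusted p = 0.462). The Irf9 call held without any 1 array, and the Irf7 call was lost without control 1 (adjusted p = 0.0505).

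Of the 4 sensors, 1 fell. Dhx58 encodes LGP2, a RIG-I-like receptor that lacks the signalling domains of the others. It had 153, 256 and 260 in the knockouts, against 468, 508 and 569 in the controls, with knockout 3 the lowest by far (2.27-fold lower, log2 difference -1.18, standard error 0.21, limma adjusted p = 0.0292). It kept its call without knockout 4 and lost it when any other mouse was left out (adjusted p = 0.0531 to 0.0898) and with no filter (0.0538). Its dimmer probe sets stood at -0.79 without overlap and at -0.20 with overlap, and their average with the one used was -0.72, which did not pass (adjusted p = 0.124). Ifih1, which encodes MDA5, the sensor of long double-stranded RNA, had 1465, 1567 and 1359 in the knockouts and 1909, 1819 and 1809 in the controls. The groups did not overlap, but the difference of -0.33 did not pass (standard error 0.10, adjusted p = 0.144). Zbp1, a sensor of left-handed nucleic acids that can trigger cell death, had 131, 192 and 160 in the knockouts and 199, 212 and 225 in the controls (no overlap, log2 difference -0.38, standard error 0.20, adjusted p = 0.414). Ddx58, which encodes RIG-I, was level in its brightest probe set, at 1734, 1490 and 1771 in the knockouts and 1551, 1614 and 1728 in the controls (log2 difference 0.03, standard error 0.11, adjusted p = 0.940). Its dimmer probe sets stood apart from that one. In the first the knockouts had 275, 215 and 295 and the controls 358, 431 and 398, and in the second the knockouts had 123, 93.6 and 173 and the controls 189, 268 and 216, so that in both every knockout lay below every control (log2 differences -0.58 and -0.75). Which transcripts each probe set detects was not tested, and the level of Ddx58 remains uncertain.

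Among the enzymes activated by or acting on double-stranded RNA, 1 of 5 tested fell. Adar, which edits adenosines to inosines in double-stranded RNA, had 745, 715 and 783 in the knockouts, against 1096, 1182 and 1360 in the controls. The knockouts lay close together and below all controls (1.60-fold lower, log2 difference -0.68, standard error 0.12, limma adjusted p = 0.0248), and the 2 further Adar probe sets stood at -0.61 and -1.03. Eif2ak2, which encodes the kinase PKR that halts translation, averaged 258 ± 25.1 in knockout livers and 455 ± 83.7 in control livers (SD, n = 3 each), without overlap and without a call (log2 difference -0.77, adjusted p = 0.0632). Oasl2, an oligoadenylate synthetase-like gene, had 122, 91.0 and 134 in the knockouts, against 245, 222 and 229 in the controls. Its groups were also apart, and the difference of -0.93 did not pass (standard error 0.21, adjusted p = 0.0659). Oasl1, whose mouse product restrains the translation of Irf7, and the synthetase gene Oas2 differed by -0.50 and -0.35 with overlapping groups (adjusted p = 0.265 and 0.564). Oas3, below the filter, averaged 68.5 ± 24.0 in the knockouts and 97.0 ± 45.3 in the controls, with overlap. The Adar call held without control 1 (adjusted p = 0.0469) and was lost without any other 1 array (0.0582 to 0.1003).

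Of the 11 genes grouped as restriction factors, 10 had a difference below 0, and Ifit1 alone fell among the 9 tested. IFIT proteins bind viral RNA and hinder its translation. Ifit1 had 330, 550 and 462 in the knockouts, against 1240, 1519 and 1064 in the controls. The highest knockout lay well under the lowest control (2.81-fold lower, log2 difference -1.49, standard error 0.20, limma adjusted p = 0.0106), and the call held without any 1 array. Ifit3 had 348, 537 and 446 in the knockouts, against 915, 1004 and 629 in the controls. The groups were apart, but the difference of -0.91 did not pass (standard error 0.21, adjusted p = 0.0739). Ifit2 was dim, at 8.1, 7.7 and 13.9 in the knockouts and 72.6, 137 and 21.9 in the controls. All its knockout signals lay under the offset of 16, so its log2 difference of -1.64 depends on that offset, and it was not tested.

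The other restriction factors differed less or varied more. Samd9l averaged 635 ± 58.8 in knockout livers and 936 ± 31.3 in control livers (SD, n = 3 each), without overlap and just missing the threshold (log2 difference -0.55, limma adjusted p = 0.0507). Bst2, or tetherin, which holds budding virions on the cell surface, differed by -0.56, Ifitm3, which blocks the entry of viruses, by -0.39, and Cmpk2, a mitochondrial nucleotide kinase, by -0.68. In these 3 the groups did not overlap and no call was made (adjusted p = 0.122, 0.211 and 0.245). Mx2, a dynamin-like GTPase below the filter, had 18.9, 18.9 and 20.8 in the knockouts and 39.4, 40.9 and 44.1 in the controls, also apart. Rsad2, which encodes viperin, had 538, 572 and 1391 in the knockouts and 1370, 1414 and 867 in the controls. Knockout 5 thus lay at the level of the controls, and the groups overlapped (log2 difference -0.64, adjusted p = 0.422). Mx1 was at -0.36 with overlap (adjusted p = 0.638). Isg20, an exonuclease of RNA, had the highest difference of the 39 members, at 300.2, 226 and 580 in the knockouts and 204, 258 and 135 in the controls, with overlap (log2 difference 0.78, adjusted p = 0.332).

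Of the 3 measured genes of ISG15 and ubiquitin conjugation, 1 fell. Usp18, which strips ISG15 from proteins and also damps signalling at the receptor subunit IFNAR2, had 619, 650 and 714 in the knockouts, against 1217, 1647 and 1351 in the controls. No knockout came near a control (2.09-fold lower, log2 difference -1.06, standard error 0.13, limma adjusted p = 0.00762), and the call held without any 1 array. Herc6, the main ISG15 ligase of mice, averaged 363 ± 51.1 in knockout livers and 517 ± 75.8 in control livers (SD, n = 3 each), without overlap or a call (log2 difference -0.49, adjusted p = 0.196). Its further probe sets stood at 0.03, -0.93 and -0.57. The dimmer one at -0.93 had groups that did not overlap. It passed in limma over all probe sets past the filter (adjusted p = 0.0216), where the others did not (0.976 and 0.416). Trim25, a ubiquitin ligase that acts on RIG-I, was level at 0.10 (adjusted p = 0.713). The probe set shared by Isg15 and Gm9706 had 237, 341 and 328 in the knockouts and 524, 788 and 540 in the controls, a log2 difference of -0.99 that cannot be assigned to Isg15 alone.

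Of the PARP genes and their partner, 3 of 4 fell. PARP9 works in a complex with the ubiquitin ligase DTX3L, and both genes had knockout signals below all controls. Parp9 had 1504, 1600 and 1394 in the knockouts, against 2425, 2754 and 2147 in the controls (1.62-fold lower, log2 difference -0.69, standard error 0.12, limma adjusted p = 0.0239). Dtx3l had 1733, 1865 and 1745 in the knockouts, against 2396, 2978 and 2439 in the controls (1.45-fold lower, log2 difference -0.54, standard error 0.11, adjusted p = 0.0481). Parp14, an ADP-ribosyltransferase, had 658, 612 and 635 in the knockouts, against 916, 1051 and 1034 in the controls (1.56-fold lower, log2 difference -0.64, standard error 0.11, adjusted p = 0.0249). Parp12 did not share this, with 1948 ± 116 in the knockouts and 1866 ± 149 in the controls (log2 difference 0.06, adjusted p = 0.830). The Dtx3l and Parp14 calls were lost without any 1 array (adjusted p = 0.0805 to 0.172 and 0.0505 to 0.0896), and the Parp9 call held only without knockout 4 or control 3 (0.0460 and 0.0294, and 0.0734 to 0.0895 without each other array). With arrays centred on their medians all 3 calls were lost, at adjusted p = 0.137 for Parp9, 0.229 for Dtx3l and 0.0778 for Parp14, and the Dtx3l call was also lost with no filter (0.0626) and when its probe sets were averaged (0.0520).

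Of the 5 other induced genes tested, 2 fell. Rtp4, an interferon-induced chaperone of cell surface receptors, had 629, 775 and 793 in the knockouts, against 2203, 3231 and 1928 in the controls. Its difference was the largest of the 36 members tested and its groups were far apart (3.24-fold lower, log2 difference -1.69, standard error 0.19, limma adjusted p = 0.00388), also without any 1 array. Xaf1, a partner of the apoptosis inhibitor XIAP, had 500, 424 and 500.3 in the knockouts, against 817, 758 and 841 in the controls (1.68-fold lower, log2 difference -0.75, standard error 0.12, adjusted p = 0.0216). That call was lost without any 1 array (adjusted p = 0.0531 to 0.0768) and also when its probe sets were averaged (-0.43, adjusted p = 0.229). Ifi35 differed by -0.28 without overlap, and the secreted glycoprotein gene Lgals3bp and the nuclear body gene Sp100 by -0.19 and -0.42 with overlap (adjusted p = 0.228, 0.471 and 0.573).

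**Figure D3:**
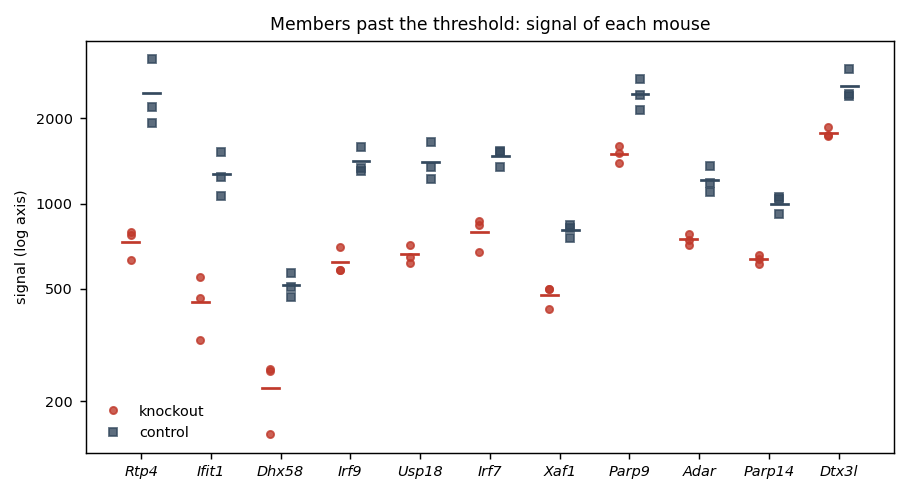
Signal of each mouse (vertical log axis) for the 11 members that fell, ordered by log2 difference, with knockouts as circles left of controls as squares and a bar at each mean. In each of the 11 genes the 3 knockouts lie below the 3 controls, from Rtp4 at 3.24-fold lower to Dtx3l at 1.45-fold lower.

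A second look at the same genes came from their other probe sets, which share the contrast and are not independent of it. Of 28 further probe sets of 18 members, 26 had a difference below 0. In 6 the sign was opposite to that of the probe set used, namely in both further probe sets of Ddx58 and of Trim25 and in 1 each of Herc6 and Sp100. The median difference of all tested genes was -0.02 as deposited, 0.08 with arrays centred on their medians and -0.18 with arrays scaled to the hybridisation control probe sets. Under these 2 scalings and under quantile and cyclic loess normalization, 30 to 35 of the 36 tested members lay below 0, and 8 to 16 members fell.

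Genes of the same pathway outside the set were counted from 4 lists, of interferons, receptors and kinases, sensing and signalling, and other induced genes, with 94 entries, of which 79 had a probe set of their own and 70 were tested. In all 6 fell (8.57%) and 0 rose, where 0.944% and 1.04% of all genes tested did so. At an unadjusted p under 0.05, 20 were lower and 0 higher. The 6 that fell were all among the 37 tested genes of the other induced list, whose median was -0.37. They were the ubiquitin ligase genes Rnf213 (1.84-fold lower, limma adjusted p = 0.00635) and Trim21, a cytosolic antibody receptor (1.55-fold, 0.0243), Trim30a and Trim34a (1.98-fold and 1.61-fold, 0.0127 and 0.0434), the chemokine gene Cxcl10 (1.76-fold, 0.0463) and Helz2 (1.44-fold, 0.0345). In Rnf213 the knockouts had 1374, 1490 and 1386 and the controls 2762, 2816 and 2308, and in Cxcl10 the knockouts had 207, 194 and 197 and the controls 357, 423 and 314. In 19 of the 41 measured genes of the other induced list (46.3%) all knockouts lay below all controls, where 10.3% of all genes with a probe set did so. Cxcl9 and Trim30a had the largest differences of the list, -1.09 with overlap (adjusted p = 0.581) and -0.98.

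The lists of interferons, of receptors and kinases, and of sensing and signalling gave 0 calls. Of the interferon genes 7 of 13 had a probe set, and 4 of these lay below the filter, so this list says little. Of the 3 tested 0 passed, and the median of the 7 was 0.05. Ifnb1, which encodes interferon beta, had 139, 84.6 and 123 in the knockouts and 71.3, 90.1 and 119 in the controls, overlapping (log2 difference 0.26, limma adjusted p = 0.726). Ifna4 and Ifna2 had the largest differences, -0.48 below the filter and -0.31 (adjusted p = 0.672). Among receptors and kinases 0 of 13 passed, with a median of -0.10. The receptor kinase genes Jak1 and Tyk2 differed by -0.05 and -0.12 (adjusted p = 0.855 and 0.711), and the largest differences were those of Stat3 at -0.48 and Jak2 at -0.45 (0.244 and 0.204). In sensing and signalling 0 of 17 tested passed, with a median of -0.14. Nlrc5, an activator of MHC class I genes, and the adaptor gene Myd88 differed most, by -0.77 and -0.53 without overlap (adjusted p = 0.0706 and 0.0745). At an unadjusted limma p under 0.05, 0, 2 and 3 genes of these lists were lower and 0 were higher.

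Keap1, the deleted gene, averaged 230.4 ± 88.6 in knockout livers and 776 ± 72.1 in control livers in its brighter probe set (SD, n = 3 each), without overlap. Its other probe set, nearly as bright, averaged 329 ± 120 and 527 ± 45.3, also without overlap. They were 3.35-fold and 1.64-fold lower (limma over all probe sets past the filter, adjusted p = 0.0103 and 0.223). In bulk liver, fewer cells of a type and less RNA per cell cannot be told apart, so markers of the cells that could carry these transcripts are given beside the counts above. Of 10 hepatocyte markers 9 were above 0 and in 5 all knockouts lay above all controls, where 8.43% of all genes with a probe set did so. The median of these 10 was 0.17, with 0 past the threshold and 1 higher at an unadjusted p under 0.05. Their summed signal was 263340 to 299720 in the knockouts and 238125 to 268000 in the controls. Of 14 Kupffer cell and macrophage markers 0 passed, 9 were above 0 and the median was 0.17, with Marco at 1.40 without overlap (limma adjusted p = 0.111). Of these 14, 2 were higher and 0 lower at an unadjusted p under 0.05. Their summed signal was 19126 to 24973 in the knockouts and 14213 to 24048 in the controls. Of the plasmacytoid dendritic cell markers 0 of 6 tested passed (median -0.16), and 1 was higher and 0 lower at an unadjusted p under 0.05. Their summed signals were 2160 to 2995 in the knockouts and 2015 to 2925 in the controls. Of the T and NK cell markers 1 of 6 tested fell, the adaptor gene Lat, at 43.1, 25.9 and 31.2 in the knockouts and 188, 129 and 251 in the controls (4.07-fold lower, a size that depends on the offset, adjusted p = 0.0178), and the median of all 12 measured was -0.25. Of these 12, 7 were below 0 and 5 above. All knockouts lay below all controls in 2 and above them in 2, where 10.3% and 8.43% of all genes with a probe set did so. Among the 6 tested, 1 was lower and 0 higher at an unadjusted p under 0.05. The sums of the 12 were 1283 to 1411 in the knockouts and 1293 to 1563 in the controls.

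Conventional dendritic cell, B cell, neutrophil, endothelial, stellate cell and cholangiocyte markers gave 0 calls by limma (1 higher and 2 lower at an unadjusted p under 0.05, over the 6 lists), with medians of 0.04, 0.02, -0.36, -0.03, -0.04 and -0.70. Their summed signals overlapped between the groups in every one of these 6 lists. The higher gene was the endothelial marker Lyve1, at 1.29 without overlap (limma adjusted p = 0.108). The lower ones were the endothelial marker Fcgr2b and the stellate cell marker Reln, at -0.33 and -0.31 without overlap (0.230 and 0.245). The cholangiocyte sums were 318 to 588 in the knockouts and 358 to 1495 in the controls, and their highest value was that of control 2, where the keratin gene Krt19 had 502, against 8.3 to 17.4 in the other controls and 11.3 to 88.5 in the knockouts. Control 2 also had the highest score of the interferon-stimulated genes. Without control 2, 5 members fell in place of 11, the same count as without knockout 3, knockout 5 or control 1, and the score difference was -0.52. The part of any cell type in the differences was not tested.

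**Figure D4:**
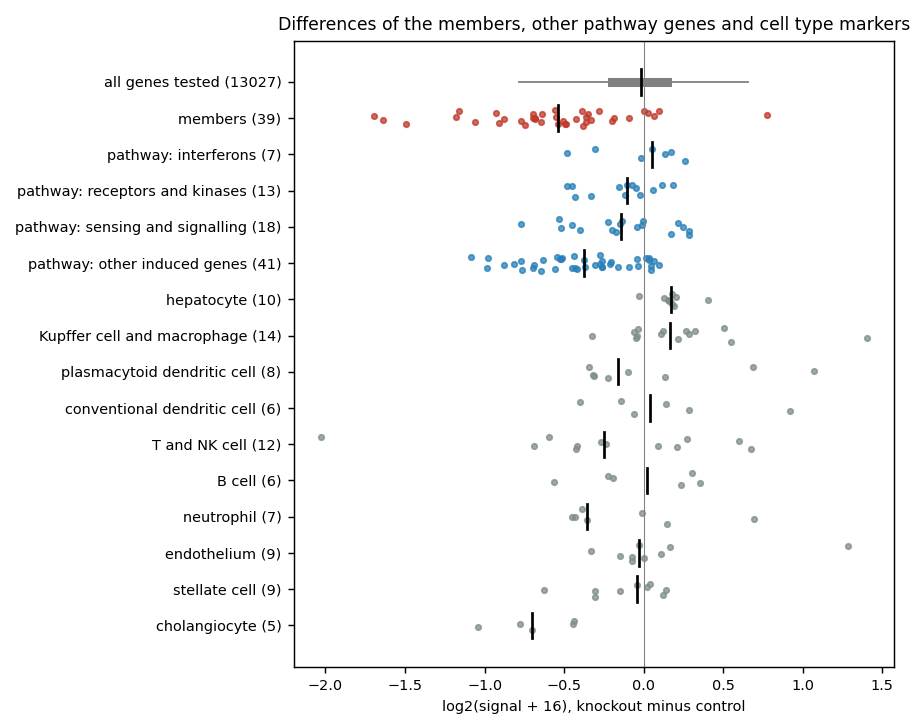
Log2 difference, knockout minus control, of each gene (points) in the set of 39 members, the 4 pathway lists and 10 lists of cell type markers, with a black bar at each median. For all 13027 genes tested the grey lines span the central 95% (thin) and 50% (thick), and the members (median -0.54) and the other induced genes (median -0.37) lie to the left of its median of -0.02.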

How the data were processed

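The authors deposited linear array intensity values, 1 per probe set and array, whose mean without the extreme 2% at each end was 500.0 on every array, so they had been scaled to a shared target. Per the labels' protocols, biotin-labelled cRNA was made from a T7-oligo(dT) primer. The software that summarised the probes was not given in the sources used here. Groups and mouse numbers came from the labels, and no batch is given. Genes were named from the platform's annotation, through probe sets with 1 symbol only, and 2 list symbols were updated through RefSeq synonyms.

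From these, log2(signal + 16) was computed, which understates the change of dim genes. Each fold is the difference of group means on this scale, turned back to a linear one, and not a ratio of mean signals. Probe sets with a mean at or above the 40th percentile entered, 1 per gene (the brightest), and limma (version 3.58.1, R 4.3.3) compared the groups (eBayes with a variance trend, two-sided, Benjamini-Hochberg over 13027 genes, threshold 0.05). "Rose" and "fell" mean past that threshold. With 3 mice a group an exact permutation test cannot go below p = 0.1, and the number of arrays limits the precision. The steps were tested on simulated data. The members, roles and lists were chosen with earlier results of these data known. Array values are given for members that passed or differed by 0.8 or more, and for all receptor subunits, transcription factors and sensors. Pathway genes are named if they passed or were among the 2 with the largest difference of a list, with the kinases of the receptor and Ifnb1, and cell markers if they passed. Isg20, Rsad2, Mx2, the shared Isg15 probe set, Marco, Lyve1, Fcgr2b, Reln and Krt19 were chosen after their values were seen. Alternatives changed the offset, the filter, the scaling, the variance model, the probe set per gene and the arrays, with the probe sets held fixed otherwise.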

Additional observations from a re-analysis of the deposited data

How the results depend on the processing

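Of the 11 members that fell, Rtp4, Irf9, Ifit1 and Usp18 did so under every alternative that could give them a value, with the highest adjusted p at 0.0328, 0.0302, 0.0494 and 0.0431 (limma). Without the variance trend 77 genes were called in place of 258, and 4 members in place of 11. Leaving out 1 array gave 92 to 171 called genes and 5 to 7 members. In the runs without knockout 3 (5), knockout 5 (5), control 1 (5), control 2 (5), knockout 4 (7) and control 3 (7) fewer mice were fitted. The count of members that rose was 0 throughout. The share of higher calls among all genes was 52.3%, but 64.9% after median centring (137 higher, 74 lower), 23.6% with scaling to the hybridisation controls (275 lower, 85 higher) and 63.6% without the trend. The score difference of all members was -0.56, that of the sensors -0.47, of the effectors -0.63 and of the transcription factors -0.68. After median centring those of all members and of the transcription factors were -0.47 and -0.59. After scaling on the hybridisation controls the 4 values were -0.72, -0.63, -0.78 and -0.85. With an offset of 1 the effectors differed by -0.73 and the transcription factors by -0.69, so their order was reversed. With an offset of 64 the effectors differed by -0.51, and without probe sets that can match several transcripts the transcription factors, then Stat2 alone, by -0.49. Values near 0 changed sign. Median centring gave 0.0055 for Ifnar1 and 0.095 for Ifnar2. Leaving out 1 array gave -0.045 to 0.034 for Ifnar2 and -0.019 to 0.104 for Ddx58. Ddx58 was -0.14 with scaling to the hybridisation controls and -0.43 in the mean over probe sets. No paired analysis was possible because the groups share only the mouse number 3.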
